A study of Mus musculus with 4 samples.

Results

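Conventional CD4 T cells of the late db/db library were 471 of the 6301 barcodes that passed the cell filter there (7.48%, exact 95% interval 6.84 to 8.15), out of 26760 barcodes in the whole series. A barcode stands for 1 captured cell, and a UMI (unique molecular identifier) for 1 captured RNA molecule. Members were chosen by their measured UMIs. They needed 1000 UMIs from 500 genes, with mitochondrial RNA at 20% of UMIs or less. They also needed 2 or more UMIs of the T cell receptor partner genes Cd3e, Cd3d and Cd3g together, and 1 or more of Cd4, the co-receptor of helper T cells. They had no UMI of Cd8a, Cd8b1, Foxp3 or Cd79a, and under 10% of their UMIs came from insulin genes. These values chose the cells and are given as a description only.

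The series holds 4 single-cell libraries of pancreatic islet cells from mice, with 1 library for each group: normal control at 98 days of age, early db/db at 70 days, late db/db at 98 days, and late db/db with intervention at 98 days. Db/db mice lack a working leptin receptor and become obese and diabetic. According to the labels, db/db mice on C57BL/KsJ were fed until blood glucose passed 10 mmol/l and were then allocated to groups at random, and male mice were bought at 8 weeks of age. The genotype label reads db/db(C57BL/KsJ) for all 4 samples, the control included, although C57BL/6 mice are also named, which leaves the control's strain unclear. The number of mice pooled in a library and what the intervention was are not given in the sources used here. Since each group is a single library, differences have no check against replicates and no test was made. All 95% intervals cover counting error only. The libraries held 120934779 to 166034254 UMIs, and any 2 of them shared 8 to 21 barcode sequences.

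CD4 T cells recognise peptides on MHC class II molecules and direct other immune cells. Naive cells circulate between blood and lymph nodes, using homing molecules such as CCR7 to enter and the sphingosine phosphate receptor S1PR1 to leave. After activation they lose this program, take up adhesion and calcium-binding proteins of memory cells, and can become helper cells of several kinds: Th1 cells that make interferon gamma, Th2 cells that make interleukin 4, Th17 cells that make interleukin 17, and T follicular helper (Tfh) cells that help B cells in follicles.

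The cells carried the RNA of their label. Cd3e, one of the genes that chose the cells, had a UMI in 83.2% of members, which is a description only. The T cell receptor constant genes Trac and Trbc2, which the rule did not use, were present in 91.3% and 98.1% of members, with Trac in 2.02% of the library's 1935 B cells (2 or more UMIs of Cd79a and Cd79b, none of the Cd3 genes), and the kinase gene Lck in 87.5%. Defining markers of other lineages were rare in members, with Cd79b in 6.37%, C1qa in 2.55% and Tyrobp in 2.76%. RNA of abundant secreted products was nearly everywhere: Ins2 had a UMI in 100% of members, of CD8 T cells, of Foxp3 regulatory T cells and of B cells, and Igkc had one in 41.4%, 44.7% and 48.5% of the 3 T cell types.

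Sequencing depth and the rule both limit what counts as a member. Members had a median of 5652 UMIs (1129 to 54468) and 1685 genes. Of the 471 members, 277 had exactly 1 Cd4 UMI, and 5 had exactly 2 Cd3 UMIs. Just outside the rule lay 444 T cells with no UMI of Cd4, Cd8a, Cd8b1 or Foxp3, 50 cells with exactly 1 Foxp3 UMI, 13 with a single Cd3 UMI, and 11 with a single Cd79a UMI. In 36 members there were 15000 or more UMIs, and values from summed UMIs are given with and without such cells where that changes them.

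Promoters of Klf2 and Satb1, which encode transcription factors of naive T cells, are shown because both genes were lower in memory-range members by the values given further on. Each window holds the 250 bases before the annotated start, from RefSeq on GRCm38.p6, written 5′ to 3′ on the gene's strand. For Klf2 it is chr8:72318812-72319061 on the plus strand, and for Satb1 chr17:51833291-51833540 on the minus strand, the most upstream of 5 windows. Capitals mark CACCC or its reverse complement GGGTG, the letters of the CACCC box to which KLF proteins bind.
Klf2: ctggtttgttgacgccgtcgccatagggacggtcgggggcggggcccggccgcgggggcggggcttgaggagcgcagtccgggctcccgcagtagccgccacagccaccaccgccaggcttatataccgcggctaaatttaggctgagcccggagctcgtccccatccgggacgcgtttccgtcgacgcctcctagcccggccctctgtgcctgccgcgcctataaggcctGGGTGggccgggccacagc
Satb1: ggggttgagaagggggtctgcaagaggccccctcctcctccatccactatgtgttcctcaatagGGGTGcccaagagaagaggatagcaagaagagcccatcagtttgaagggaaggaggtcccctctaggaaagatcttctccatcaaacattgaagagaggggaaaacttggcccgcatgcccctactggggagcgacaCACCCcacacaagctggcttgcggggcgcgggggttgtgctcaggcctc
The Klf2 window held 1 match, 19 bases from the start, and the Satb1 window held 2, the nearer one 49 bases away. Of 32851 windows in the table, 52.0% held a match, so these letters are common in promoters.

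Naive-range cells outnumbered memory-range cells among members. Each cell was thinned at random to 2000 UMIs, which 466 members reached, and UMIs of 8 memory genes (S100a4, S100a6, S100a11, Cd44, Itgb1, Ahnak, Crip1 and Lgals1) were subtracted from those of 6 naive genes (among them Ccr7, Lef1, Igfbp4, Dapl1 and Actn1). A difference of at least 2 in favour of the naive genes put 236 members (50.6%, 46.0 to 55.3) in the naive range, and 126 (27.0%, 23.1 to 31.3) fell in the memory range. The other 104 (22.3%) lay between. These classes are ranges of a continuous score and not cell types: 116 members lay within 1 UMI of the naive limit and 85 within 1 UMI of the memory limit. After thinning to 1000 UMIs the naive range held 36.7% and the memory range 19.7%, so the cells between were then the most frequent. Median depths were alike, at 5756, 5280 and 5816 UMIs for the naive range, the cells between and the memory range. Summed UMIs were not in proportion to the cells, with 1319951 in the 126 memory-range and 1510406 in the 236 naive-range members. Deep cells therefore weigh more in the memory-range sums, and they raise its shares of cells with a UMI where counts were not thinned.

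**Figure D1:**
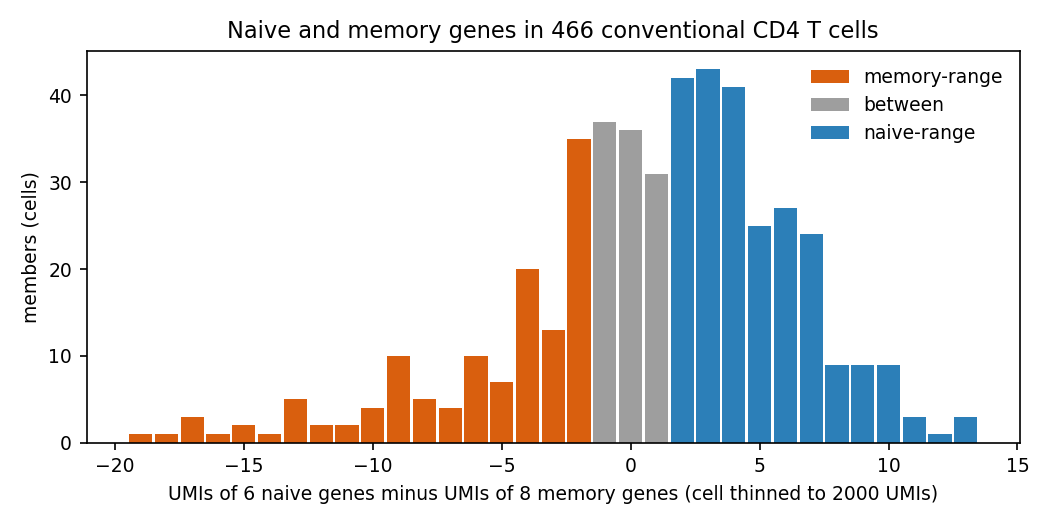
Distribution of the naive-minus-memory score. The x axis is the UMIs of 6 naive genes minus the UMIs of 8 memory genes in each of 466 members thinned to 2000 UMIs, and the y axis the number of members. Naive-range cells (236) form one broad peak, and the memory-range cells (126) a long tail that reaches -19.

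The score genes themselves show what the ranges hold. Igfbp4, which encodes a secreted binding protein of insulin-like growth factors, had a UMI in 85.2% of naive-range, 37.5% of in-between and 19.0% of memory-range members before thinning. Lef1, a transcription factor of naive T cells, had one in 89.0%, 56.7% and 43.7% of them. S100a6, a calcium-binding protein gene, ran the other way, with 1.69%, 8.65% and 57.9%. In each of the 3 genes the cells between lay between the ranges, as the score requires. The 21 genes of the naive and trafficking list took 0.240% to 1.54% of a naive-range cell's UMIs (median 0.907%) and 0.0418% to 1.30% of a memory-range cell's (median 0.410%), so the cells overlapped on the full list.

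The share of naive-range cells was between those of the other T cells. Among CD8 T cells 476 of 820 (58.0%, 54.6 to 61.5) and among Foxp3 regulatory T cells (the members' rule with at least 1 Foxp3 UMI) 22 of 101 (21.8%, 14.2 to 31.1) fell in the naive range. The memory range held 94 CD8 T cells (11.5%, 9.36 to 13.8) and 32 regulatory T cells (31.7%, 22.8 to 41.7). Among members, those with 2 or more Cd4 UMIs were in the naive range in 43.0% and those with 1 Cd4 UMI in 56.0%.

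Many genes outside the score differed between the ranges. UMIs were summed over the 126 memory-range and the 236 naive-range members and expressed as CPM, UMIs per 1000000 UMIs counted without mitochondrial and 7 hormone genes. A gene was measured with at least 50 CPM in the higher group and 50 UMIs in all, and called with a difference of at least 2-fold. Of 2914 measured genes, 397 were higher (13.6%) and 44 lower (1.51%) in memory-range cells, and the median of all genes was 0.39 on the log2 scale. TMM scaling, which moves that median to -0.02, gave 191 higher and 135 lower, so values are also read against the median. Many calls depended on the setting. With members of 15000 or more UMIs left out, 133 of the 397 and 23 of the 44 genes were called alike (2788 measured). Without any other B cell or myeloid UMI 54 and 20 were (2069 measured), and from thinned sums 64 and 17 (1642 measured). The same cells gave both the ranges and these ratios, and no test was run.

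Migration genes of naive cells were lower in memory-range members. Klf2, which encodes a factor that drives S1pr1, had a UMI in 95.8% of naive-range and 64.3% of memory-range members, and its level was 1740 against 584 CPM (log2 ratio -1.58, 95% interval -1.70 to -1.46). S1pr1, the egress receptor, had one in 70.3% and 39.7% of them (-1.38, -1.70 to -1.07). For Satb1, a chromatin organiser, the shares were 86.0% and 38.1% (-2.19, -2.50 to -1.90). Each of these intervals lies wholly below 0. Of 14 measured genes of the naive and trafficking list outside the score, 6 were at least 2-fold lower (the others being Bach2, Txk and Npc2) and none was higher, with a median of -0.94, or -1.33 against the median of all genes. With members of 15000 or more UMIs left out, 4 of 15 measured genes of this list were lower, and without any other B cell or myeloid UMI 4 of 14.

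Not every gene linked to naive cells followed. Tcf7, which encodes the transcription factor TCF1 of naive and long-lived T cells, had a UMI in 69.5% of naive-range and 74.6% of memory-range members (log2 ratio -0.26), and over the alternatives its value ran from -0.62 to 0.18. Il7r, the receptor of the survival cytokine interleukin 7, had one in 64.0% and 68.3% (0.19, with alternatives from -0.16 to 0.82). Il7r was below 0 with TMM scaling only, and Tcf7 above 0 only from thinned sums and with members of 15000 or more UMIs left out.

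Genes with the lowest ratios included surface and signalling genes of resting cells. Ly6c1, a surface protein gene, had a UMI in 43.2% of naive-range and 8.73% of memory-range members (-2.78, -3.38 to -2.23). Pdlim4, a cytoskeletal adaptor gene, had one in 43.2% and 6.35% (-3.06), and Treml2 in 30.1% and 7.14% (-2.83). Pik3ip1, which encodes an inhibitor of phosphoinositide 3-kinase, had one in 61.0% and 29.4% (174 against 43.4 CPM). Tsc22d3, a glucocorticoid-induced gene, and Txnip, a gene of glucose uptake control, were also lower (-1.76 and -1.55). In the list of glucocorticoid, heat shock and dissociation genes these were the 2 lower of 13 measured, and Fkbp5 was the 1 higher.

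Some migration and adhesion genes of activated cells were higher in memory-range members. The list of chemokine receptors and egress genes had 3 of 8 measured genes outside the score higher (Cxcr3, Itga4 and S1pr4), 1 lower (S1pr1) and 4 within 2-fold. Cxcr3, the receptor for interferon-induced chemokines, had a UMI in 32.5% of memory-range members and in 3 of 236 naive-range members (1.27%), with 117 against 2.10 CPM (log2 ratio 5.80, 4.23 to 8.10). Cxcr6, a receptor of tissue T cells, had one in 24 of 126 memory-range members (19.0%, 12.6 to 27.0) and in 0 of 236 naive-range members, which allows a share of up to 1.27%. Itga4, the alpha chain of the integrin VLA-4, had one in 68.3% and 33.1% (1.67). Anxa2, a membrane-binding protein gene, had one in 35.7% and 1.27% (6.77, with alternatives from 3.58 to 6.79). The memory and effector list had 8 of 11 measured genes outside the score higher and none lower, with a median of 2.02, or 1.63 against the median of all genes. It had 6 of 9 higher without the deep members. Vim and Lgals3 depended on few cells: the 3 cells richest in Lgals3 held 91.4% of its memory-range UMIs, and Vim was 2.11 over all cells and 0.78 at the lowest alternative.

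Several transcription factors of helper cells and some co-stimulation genes were higher, in contrast to Klf2, Satb1 and Bach2. Maf, a factor that promotes interleukin 4, 10 and 21, had a UMI in 71.4% of memory-range and 17.8% of naive-range members (2.33, 1.96 to 2.71). Bhlhe40, a factor of cytokine-producing helper cells, had one in 63 of 126 and 19 of 236 cells (2.42), Rora in 42.9% and 5.93% (2.96), Id2 in 54.8% and 23.3% (2.26), and Gata3 in 42.9% and 17.8% (1.75). Icos, a co-stimulatory receptor, had one in 69.8% and 29.7% (1.55), and Tnfrsf4, which encodes OX40, in 52.4% and 16.5% (1.95). The list of co-stimulation and TNF family ligands had 4 of 8 measured genes higher, namely Icos, Tnfsf8, Tnfrsf4 and Tnfsf11. Of 9 measured genes of the Tfh list 5 were higher (Icos, Sh2d1a, Tnfsf8, Maf and Cd200) and Il6ra, an interleukin 6 receptor gene, was lower. Without the deep members 7 of 9 were higher. Cd40lg, the ligand through which helper cells activate B cells, was not among the genes called: it had a UMI in 40.5% and 21.6% (0.56, 0.08 to 1.05), and after thinning in 10.3% and 9.32%.

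**Figure D2:**
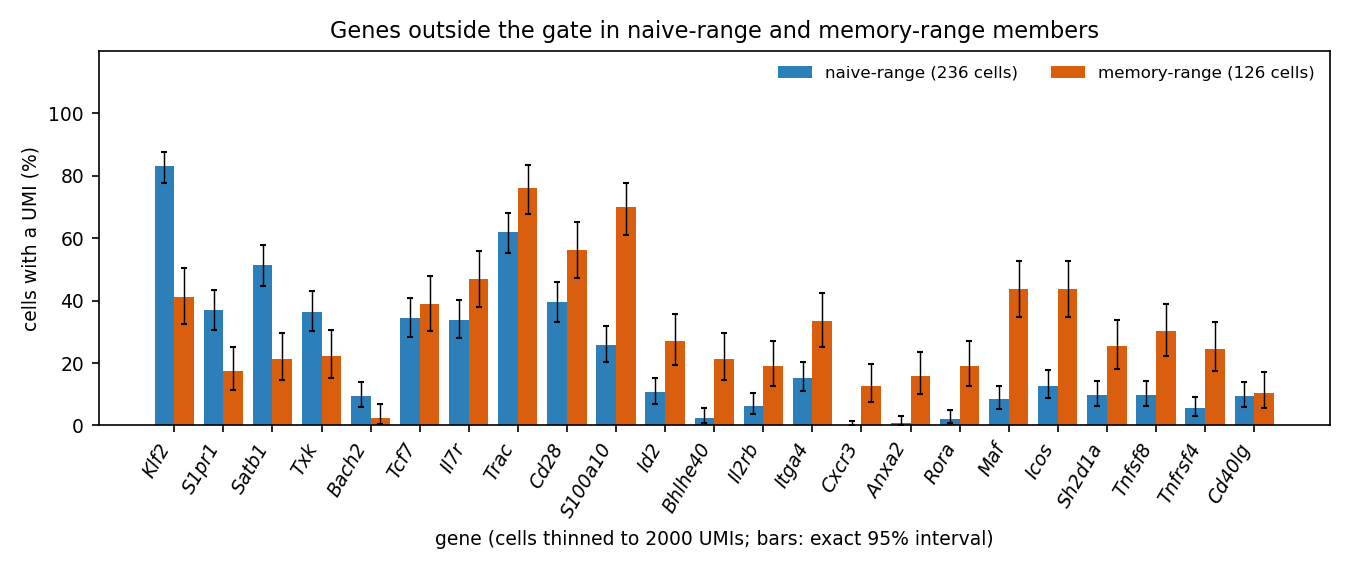
Share of cells with a UMI for 23 genes outside the score. Bars are the percentage of 236 naive-range and 126 memory-range members, each thinned to 2000 UMIs, with exact 95% intervals. Klf2, S1pr1 and Satb1 are lower in the memory range, S100a10, Maf, Icos and Cxcr3 are higher, and the Cd40lg bars stand at 10.3% and 9.32%.

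Receptor and signalling genes of all T cells differed little. None of 20 measured genes of the T cell receptor complex and its kinases was 2-fold apart (median 0.22, or -0.17 against all genes). Of 17 immediate early genes, which mark recent receptor signals, Nfkbia was higher and Jun lower. Cd69, an early activation and residence marker, had a UMI in 52.4% of memory-range and 49.6% of naive-range members (-0.48). Of 4 measured genes of the tissue residence list none was 2-fold apart. The interferon response list had 1 of 7 higher (Ifi27l2a) and 2 lower (Gbp4 and Igtp), and cytokine receptors 2 higher (Il18r1 and Il2rb) and 2 lower (Il6ra and Il4ra) of 12.

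Inhibitory and regulatory genes were partly higher. Ctla4, an inhibitory receptor gene, had a UMI in 48.4% of memory-range and 16.1% of naive-range members (1.17, 0.82 to 1.53), and Ikzf2, which encodes Helios, in 52.4% and 11.4% (1.48). The regulatory T cell list had 4 of 7 measured genes higher and the list of anergy and inhibitory receptors 4 of 12, both without a lower one. Izumo1r, which encodes folate receptor 4, had a UMI in 70.6% and 34.3%, with a log2 ratio of 0.80.

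Markers of other cells moved with the memory range too. The B cell list had 4 of 6 measured genes higher, all of them MHC class II genes (Cd74, H2-Aa, H2-Ab1 and H2-Eb1), the myeloid list 2 of 3 (Lyz2 and Cd68), and the CD8 T and NK cell list 2 of 2 (Fcer1g and Tyrobp). Spp1, Gpnmb and Ctsk, genes of macrophages and osteoclasts, had the 3 highest ratios (8.57, 8.07 and 7.14), and in each case 3 cells held at least 99.1% of the memory-range UMIs. Of the 12 endocrine genes 8 were measured and none was 2-fold apart. Without members that had 3 or more UMIs of 5 myeloid genes, no B cell or myeloid list gene was called, while the naive list had 6 of 14 lower and the memory list 8 of 11 higher. That filter used Lyz2, C1qa, C1qb, Tyrobp and Fcer1g, so the loss of the Lyz2 call was set by the filter itself.

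Cell cycle genes were concentrated in deep cells of the memory range. Of 20 measured genes 19 were higher in memory-range members, with a median of 2.57. At least 3 of 8 mitotic genes had a UMI in 27 members (5.73%, 3.81 to 8.23), of which 22 were in the memory range and 3 in the naive range. The median depth of these 27 was 28427 UMIs, against 5652 over all members. After thinning to 2000 UMIs, 12 of 126 memory-range (9.52%, 5.02 to 16.0) and 1 of 236 naive-range members still met the criterion. With members of 15000 or more UMIs left out, 4 of the 6 cell cycle genes still measured were higher. Among other cells of the library, 1.57% of CD8 T cells, 10.9% of regulatory T cells and 2.69% of B cells met it without thinning.

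Helper programs were found in a minority of members. A cell was placed in the range of a helper state when at least 2 core genes of that state had a UMI. The Tfh range held 37 members (7.86%, 5.59 to 10.7) and the Th1 range 36 (7.64%, 5.41 to 10.4), against 7 in the Th17 range (1.49%) and 4 in the Th2 range (0.849%). No range applied to 401 members, 56 were in 1 range and 14 in 2 or more. After thinning to 2000 UMIs, 11 Tfh-range, 8 Th1-range, 2 Th17-range and 1 Th2-range cells remained of 466, so most assignments need more than 2000 UMIs per cell.

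The same criterion in other cells of the library gives the background. For the Tfh range it was 5 of 826 CD8 T cells (0.605%), 78 of 1935 B cells (4.03%), which express Cxcr5 and Bcl6 themselves, and 21 of 101 regulatory T cells (20.8%). For the Th1 range it was 321 CD8 T cells (38.9%), which share Ccl5 and Nkg7, and 9 B cells. For the Th17 range, at 1.49% of members (0.600 to 3.04), it was 0.363% of CD8 T cells, 1.98% of regulatory T cells and 2.07% of B cells, which express the core gene Ccr6. For the Th2 range, at 0.849% of members (0.232 to 2.16), it was 0.121% of CD8 T cells, 0.990% of regulatory T cells and 0.0517% of B cells. The intervals of members and CD8 T cells overlap for both ranges. Median depths were 7752 UMIs in CD8 T cells, 6739 in regulatory T cells and 3733 in B cells.

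Helper ranges lay mainly in memory-range members. Of the 37 Tfh-range members 23 were in the memory range, 9 between and 5 in the naive range, and of the 36 Th1-range members 27 were in the memory range and 4 in the naive range. As shares, 18.3% of memory-range (11.9 to 26.1) and 2.12% of naive-range members (0.691 to 4.87) were in the Tfh range.

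**Figure D3:**
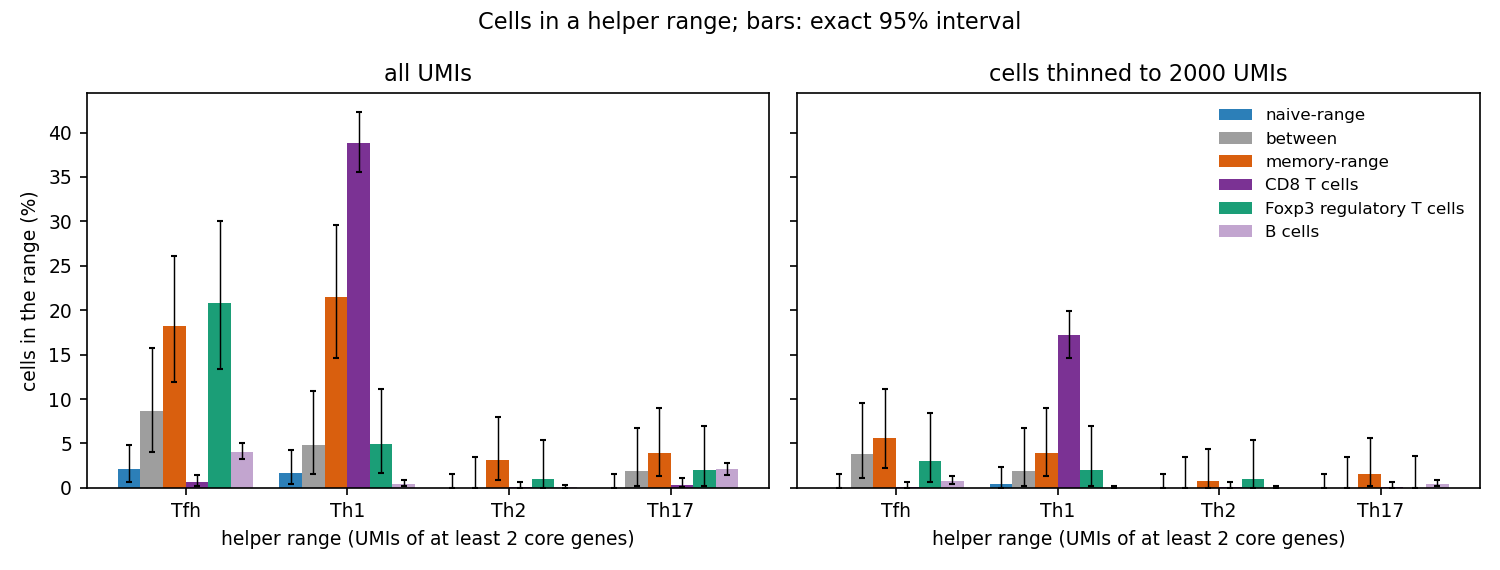
Share of cells in each helper range. Bars are percentages of naive-range, in-between and memory-range members, CD8 T cells, Foxp3 regulatory T cells and B cells with exact 95% intervals, from all UMIs on the left and after thinning to 2000 UMIs on the right. The memory range stands above the naive range for Tfh and Th1, with overlapping Th1 intervals after thinning. Regulatory T cells reach 20.8% for Tfh from all UMIs.

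Effector cytokine RNA was sparse. Ifng, encoding interferon gamma, had a UMI in 17 members (3.61%), of which 14 were in the memory range and 1 in the naive range, and in 0.207% of B cells. Tnf had one in 17 members, 14 of them in the memory range. Il2, the growth factor of activated T cells, had one in 25 members, 11 in the memory range and 5 in the naive range. Il10 was found in 10 members, Il4 in 8, Il21 in 5 and Il17a in 1. The memory range held 7, 7, 4 and 1 of these. Il4 and Il21 met in 1 member, and Ifng and Il21 in 3. The lineage factor Tbx21 of Th1 cells had a UMI in 2.34% of members.

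Th1-range members were recognised mostly by Cxcr3, a core gene, in 86.1% of 36 cells, followed by Ccl5 in 47.2%, Ifng in 41.7%, Nkg7 in 33.3% and Tbx21 in 9 cells. The interleukin 12 receptor gene Il12rb2 had no UMI in any of them, which allows a share of up to 8.33%. Among the Th1 list, 4 of 5 measured genes were higher in memory-range than in naive-range members (Il18r1, Cxcr3, Nkg7 and Ccl5), but without any other B cell or myeloid UMI the 1 gene still measured was not called. The 3 richest cells held 87.8% of the memory-range UMIs of Ccl5 and 90.2% of those of Nkg7. In the Th2 list Gata3 was higher and Il4ra lower. In the Th17 list Rora, Batf, Tmem176a and Tmem176b were higher, and in the cytotoxic granule list all 3 measured genes (Srgn, Nkg7 and Ccl5).

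Tfh-range members had higher levels of Tfh list genes beyond the core genes that placed them. They were compared with the 379 members that had no UMI of the 8 core genes. The higher levels were not particular to the Tfh range. Memory-range against naive-range members also had higher Maf (log2 ratio 2.33), Sh2d1a (1.67), Tnfsf8 (1.61), Icos (1.55) and Cd200 (1.17). Of the Tfh-range members 23 were in the memory range, and 6 in the regulatory T cell-like cluster given below. Tox2 (62.2%), Pdcd1 (59.5%), Cxcr5 (40.5%) and Bcl6 (40.5%) were the core genes found in the largest shares of Tfh-range cells. Of 3135 measured genes, 400 were higher (12.8%) and 98 lower (3.13%), with a median of 0.36, and TMM scaling turned the split to 163 higher and 223 lower. Tfh-range cells were deeper, with a median of 6774 against 5526 UMIs, which raises every share of cells with a UMI among them. The medians understate this, since the 37 cells held 421455 UMIs and the 379 others 2479641. A criterion of 2 core genes against none also favours deep cells in itself. The shares given for this comparison were not thinned.

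Co-stimulation and Tfh genes were higher. Icos had a UMI in 89.2% of Tfh-range members and 34.8% of the others (log2 ratio 1.14, 0.80 to 1.47). Maf had one in 89.2% and 31.9% (1.33), and Sh2d1a, which encodes the adaptor SAP needed for contacts with B cells, in 81.1% and 29.8% (1.27, 0.89 to 1.63). Tox, a nuclear factor of Tfh and chronically stimulated cells, had one in 62.2% and 26.9% (1.12). For Cd200 and Btla, inhibitory surface proteins of Tfh cells, the shares were 54.1% and 14.5% (2.34) and 35.1% and 13.5% (1.44), but over the alternatives their ratios ran down to 0.12 and 0.50. Of 10 measured genes of the Tfh list outside the core, 8 were higher and none lower (median 1.30, or 0.94 against all genes). With TMM scaling 3 of 10 were still 2-fold higher and none lower. Cd40lg had a UMI in 51.4% and 25.6%, with a ratio of 0.55 (-0.06 to 1.11).

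Naive and egress genes were lower. Klf2 had a UMI in 40.5% of Tfh-range members and 87.9% of the others (-2.52, -2.82 to -2.24), although the Tfh-range cells were deeper. S1pr1 had one in 21.6% and 64.1% (-2.32), Satb1 in 18.9% and 76.0% (-2.99), and Ccr7 in 45.9% and 64.1% (-1.21). Of 20 measured genes of the naive and trafficking list, 10 were lower and none higher. Il7r was among them, with 51.4% and 65.4% (-1.37).

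Inhibitory and regulatory genes were also higher in Tfh-range members. Lag3 had a UMI in 27.0% of them and 2.37% of the others (4.74), with 82.0% of its UMIs in 3 cells. Ctla4 had one in 73.0% and 21.1%, Ikzf2 in 78.4% and 19.5%, and Tnfrsf4 in 70.3% and 21.6%. In Foxp3 regulatory T cells these 3 genes were at 76.2%, 89.1% and 78.2%, close to the Tfh-range shares, whereas Cd40lg was at 6.93%. Of 5 measured myeloid genes 4 were higher as well (C1qa, C1qb, C1qc and Lyz2), and C1qa, C1qb and C1qc each had a UMI in 5.41% of the 37 cells. The 8 highest ratios (Lyz1, Wfdc17, C1qb, Rgs5, C1qc, Dcn, Nkg7 and C1qa) had 98.3% to 100% of their Tfh-range UMIs in at most 3 cells. Among the 8 lowest, Spp1, Ctsk, Gpnmb, Gcg, Clps, Cela3b and Cel had 68.5% to 100% of the other members' UMIs in 3 cells. Pdlim4 had 6.70% there. Of 19 measured immediate early genes 6 were higher (Fos, Fosb, Egr1, Nr4a1, Dusp1 and Zfp36), and without any other B cell or myeloid UMI 2 of 15 were higher and 3 lower. Cell cycle genes were higher in 19 of 20 cases, and in 1 of 4 with deep members left out. Without any member that held another B cell or myeloid UMI, 6 of 8 measured Tfh genes were higher and 11 of 20 naive genes lower.

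**Figure D4:**
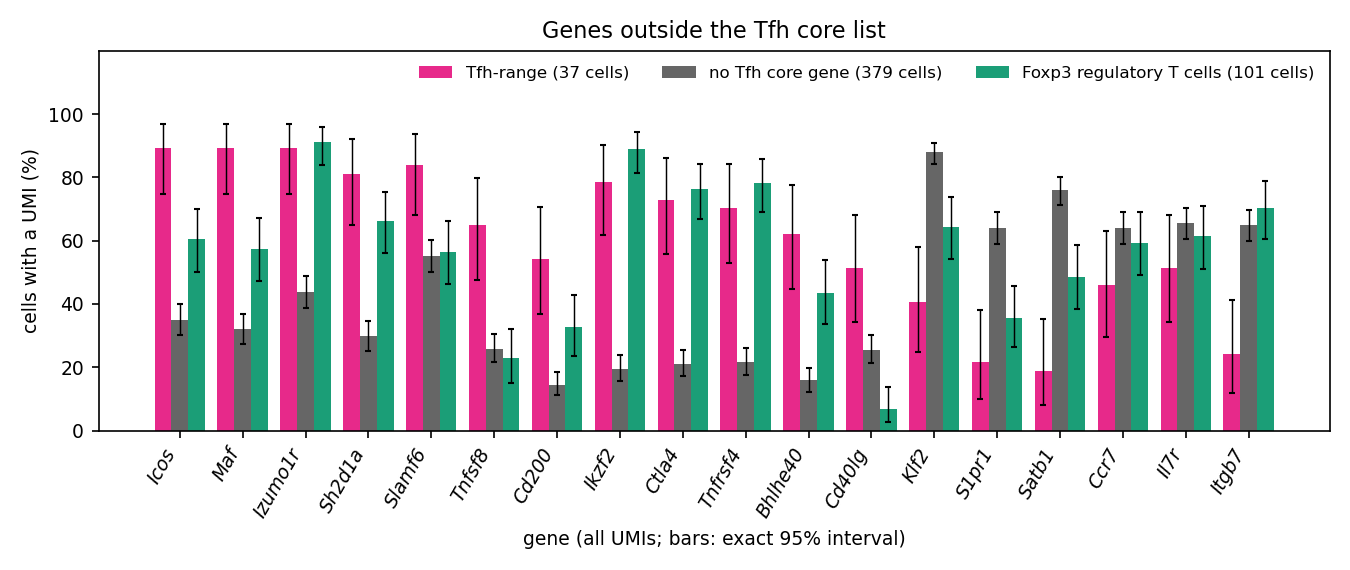
Genes outside the Tfh core list. Bars are the percentage of cells with a UMI, from all UMIs, in 37 Tfh-range members, 379 members with no core gene and 101 Foxp3 regulatory T cells, with exact 95% intervals. Icos, Maf and Sh2d1a are higher and Klf2, S1pr1 and Satb1 lower in the Tfh range, and Cd40lg separates it (51.4%) from regulatory T cells (6.93%).

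Clustering of the members found 6 groups. A naive T cell-like cluster of 119 cells was led by Ly6c1, Igfbp4 and Dapl1, and 95 of its cells were in the naive range. A cycling cell-like cluster held 21 cells, 16 of them in the memory range, with a median of 32869 UMIs. A cluster of 45 cells was regulatory T cell-like although no member had a Foxp3 UMI: Lrrc32, which encodes the surface protein GARP, stood at 167 CPM against 5.46 in the other members, Ikzf2 at 1027 against 108, and Il2ra at 147 against 13.2. It held 14 naive-range, 10 memory-range and 18 in-between cells. The other 3 clusters stayed unnamed. One of 140 cells held 88 memory-range, 25 Tfh-range and 24 Th1-range members and was led by Lyz2, Apoe and MHC class II genes. Lyz2 had a UMI in only 10.0% of its cells and Apoe in 17.9%. In this cluster 8 Tfh markers were at least 2-fold above the other members, among them Cxcr5, Pdcd1, Tox2, Icos and Maf. Memory markers such as S100a4 and Cd44 were too. One of 92 cells, 75 of them in the naive range, was led by acinar enzyme genes such as Clps (48.9% of its cells). Igfbp4, Dapl1 and Klf2 were at least 2-fold higher there. One of 54 cells, 37 of them in the naive range, was led by endocrine genes such as Ttr. Leading genes of a cluster are a description of how it was formed.

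Conventional CD4 T cells differed from CD8 T cells of the library in helper and cytotoxic genes. CD8 T cells numbered 826 (13.1% of cells) under the same rule with Cd8a or Cd8b1 in place of Cd4, and were deeper (7752 UMIs). Of 2622 measured genes, 115 were higher (4.39%) and 30 lower (1.14%) in CD4 T cells, 5.53% in either direction, with a median of 0.20, and TMM scaling gave 76 and 51. Cd40lg had a UMI in 29.1% of CD4 and 1.45% of CD8 T cells, at 60.6 against 3.05 CPM (log2 ratio 4.31, 3.65 to 5.05), and in 0 of 1935 B cells, which allows up to 0.155%. The co-stimulatory receptor gene Cd28 had one in 81.7% and 51.8% (1.36), Icos in 42.9% and 26.9% (1.53), and Tnfrsf4 in 31.2% and 3.87% (3.79). Maf had one in 39.7% and 7.63% (3.54) and Izumo1r in 51.8% and 13.2% (2.98). All of these CD4 shares were higher although the CD8 cells were deeper.

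By list, 6 of 9 measured Tfh genes, 5 of 7 co-stimulation genes and 4 of 6 regulatory genes were higher in CD4 T cells and none lower. Of 6 measured cytotoxic granule genes 5 were lower, among them Nkg7 (46.4 against 529 CPM, -3.51, -3.75 to -3.28), Ctsw (-2.90) and Klrd1 (-3.26). Ly6c2, a surface protein gene, had a UMI in 3.82% of CD4 and 75.4% of CD8 T cells (-6.51). Its neighbour in name Ly6c1 had one in 30.4% and 2.30% (4.04, 3.56 to 4.56). These 2 genes are near-identical copies, so reads that fit both could have affected their counts, which was not tested. Runx3, the factor that maintains the CD8 fate, had one in 25.7% and 71.2% (-1.67). None of 12 cytokine receptors and none of 18 immediate early genes was 2-fold apart.

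Naive genes were mostly within 2-fold of CD8 T cells. Of 20 measured genes of the naive list, 1 was at least 2-fold lower and none higher. Ccr7 was at 280 and 289 CPM and Igfbp4 at 479 in both. The memory list had 9 of 20 higher and Ly6c2 lower, and 6 of 18 higher with cells of 15000 or more UMIs left out. One of the 9 is Lgals3, of which 3 CD4 T cells held 89.7% of the UMIs. The 5 highest ratios of the comparison belonged to macrophage genes (Gpnmb, Ctsk, Spp1, Lyz2 and Lgals3), with 89.7% to 99.6% of their UMIs in 3 CD4 T cells, and the MHC class II genes H2-Aa, H2-Ab1 and H2-Eb1 were lower. S100a4, with a UMI in 18.0% and 4.60%, had a ratio of 2.85 and 1.77 at the lowest alternative. Cell cycle genes were higher in 13 of 15 cases, and in 0 of 2 with cells of 15000 or more UMIs left out.

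**Figure D5:**
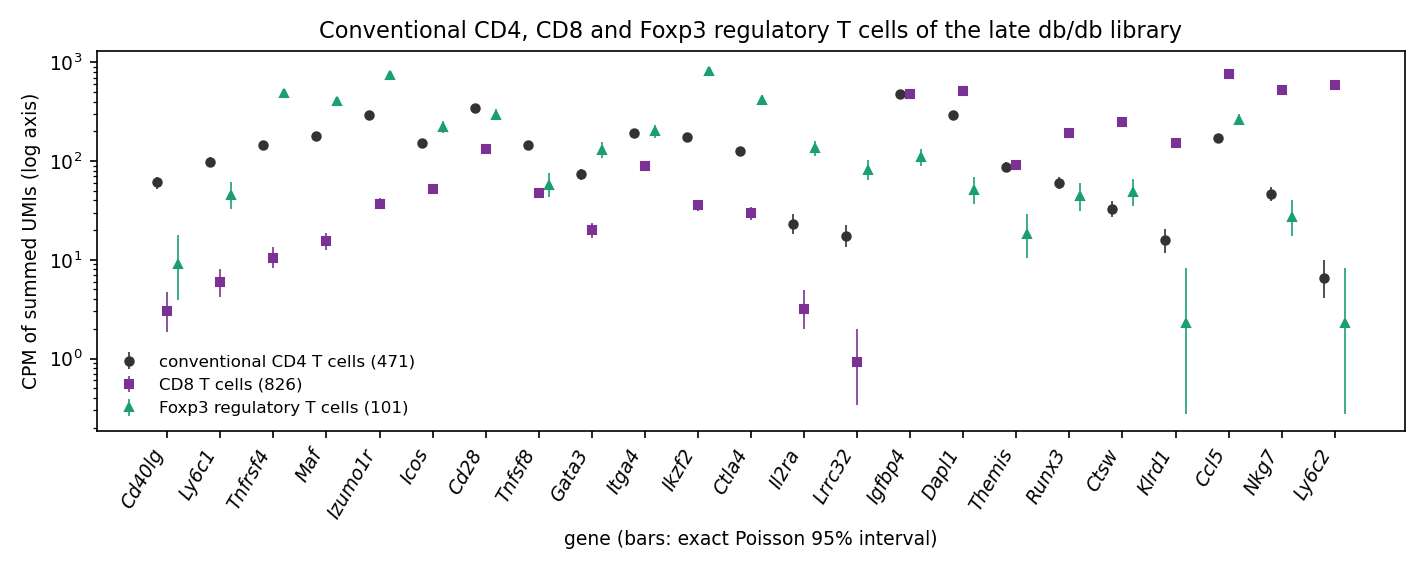
Levels of 23 genes in conventional CD4 (471), CD8 (826) and Foxp3 regulatory T cells (101) of the late db/db library. Points are CPM of summed UMIs on a log axis with exact Poisson 95% intervals. Cd40lg is highest in conventional CD4 T cells (60.6 CPM), Il2ra and Lrrc32 in regulatory T cells, and Nkg7 and Ly6c2 in CD8 T cells.

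Against the 101 Foxp3 regulatory T cells, conventional CD4 T cells had less of every measured regulatory gene. All 12 measured genes of the regulatory list were at least 2-fold lower, from -1.24 (Nrp1) to -2.54 (Il2ra, 23.2 against 135 CPM, -2.97 to -2.11), with a median of -1.73. Across all 2917 measured genes 53 were higher (1.82%) and 113 lower (3.87%), 5.69% in either direction, with a median of -0.09, and TMM scaling gave 70 and 72. Cd40lg had a UMI in 29.1% of conventional and 6.93% of regulatory T cells (2.74, 1.74 to 3.97). The naive genes Dapl1 (2.51), Igfbp4 (2.13) and Lef1 (1.26) were higher, and Themis, a gene of receptor signalling in thymocytes, had a UMI in 34.8% and 13.9% (2.25). The homing receptor gene Ccr7 stood at 280 and 308 CPM. The highest and lowest ratios of this comparison belonged to acinar, macrophage and dendritic cell genes such as Clps, Spp1 and Ccl22, of which 3 cells held 89.6%, 98.5% and, on the regulatory side, 100% of the UMIs.

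Under the same rule the other libraries held few conventional CD4 T cells. There were 15 of 4800 cells in early db/db (0.313%, 0.175 to 0.515), 3 of 4629 in the control (0.0648%, 0.0134 to 0.189) and 2 of 5115 with the intervention (0.0391%, 0.00474 to 0.141). The balance of the score genes differed from that of the late library. In early db/db 14 of 15 cells had more memory than naive UMIs and 1 more naive, with 246 and 11 UMIs in all. In late db/db 164 of 471 had more memory and 296 more naive UMIs, with 6791 and 5173 in all. Cxcr3 had a UMI in 8 of the 15 early cells and in 55 of the 471 late cells, and Cd40lg in 3 and 137. The sample label places these 15 cells in early db/db, but the deposited files of that library carry a name that reads like a second control, so its identity is less sure than that of the others. The early cells were shallower (median 2540 UMIs), and age, group and library differ together and cannot be told apart.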

How the data were processed

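Single-cell RNA was measured in 4 libraries with 10x Genomics 3′ v3 chemistry, per the labels' protocols. The deposited matrices hold UMI counts per gene and barcode, written by Cell Ranger 3.0.0 per the file headers. Build mm10, CASAVA 1.8 and Seurat are named in the submitters' processing notes, and the annotation and the role of Seurat are not given in the sources used here.

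Members, lists and ranges were chosen with earlier results of these data known. UMIs were summed over cells, with Poisson, Clopper-Pearson and conditional binomial 95% intervals (numpy 2.4.6, scipy 1.17.1). A floor of 3 UMIs over the group replaced sums of 0. Genes were named from 26 lists where 2-fold apart or defining a state, and from the 8 highest and 8 lowest ratios of each comparison, not all of which are named. Others named, such as Pdlim4 and Ly6c1, fall under these rules. Clustering used Leiden (scanpy 1.11.5, 1500 variable genes, 20 components, 15 neighbours, resolution 0.8). Scrublet marked 65 of 6301 cells (1.03%) at its own threshold. Doublets were kept, and the 318 highest scores, 7 of them members, were removed in an alternative. TMM factors came from edgeR 4.0.16. The comparison procedure was tested on simulated data. Promoters came from RefSeq on GRCm38.p6. A comparison of late with early db/db was set to need 30 cells in each and was not run. A few genes of the lists, 1 of the naive score genes included, entered the counts and are not reported here by name.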

Additional observations from a re-analysis of the deposited data

How the results depend on the processing

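No paired analysis was possible because each group is 1 library, and no replicate could be left out. The alternatives with under 15000 UMIs, without myeloid UMIs (3 or more UMIs of 5 genes), without the regulatory-like cluster, with thinned sums and without Crip1 were chosen after seeing the data. Memory-range against naive-range members gave 191 genes higher and 135 lower with TMM scaling (of 2724 measured). At 20 CPM and 20 UMIs they were 872 and 103 (of 5772). Without any other B cell or myeloid UMI they were 120 and 28 (of 2069), and from thinned sums 130 and 26 (of 1642). Under 15000 UMIs 229 were higher (of 2788), and the main setting measured 2914 genes. Tfh-range members gave 163 and 223 with TMM scaling (of 2857) and 976 and 244 at 20 CPM and 20 UMIs (of 6116). Without any other B cell or myeloid UMI they gave 220 and 187 (of 2443), and from thinned sums 187 higher (of 1881). The main setting measured 3135 genes, with 400 higher and 98 lower. Of these, 189 and 41 were called alike under 15000 UMIs, 59 and 44 without other B cell or myeloid UMIs, and 57 and 51 from thinned sums. Against CD8 T cells there were 76 and 51 with TMM scaling (of 2420) and 267 and 69 at 20 CPM (of 5322). The main setting measured 2622 genes, with 115 higher and 30 lower. Of these, 58 and 17 were called alike under 15000 UMIs, 50 and 18 without other B cell or myeloid UMIs, and 68 and 19 from thinned sums. Against regulatory T cells there were 72 lower with TMM scaling (of 2706), 94 higher and 278 lower at 20 CPM (of 5817), and 95 higher from thinned sums (of 2639). The main setting measured 2917 genes, with 53 higher and 113 lower. Of these, 26 and 62 were called alike under 15000 UMIs, 20 and 23 without other B cell or myeloid UMIs, and 40 and 29 from thinned sums. The members' share was 3.48% without other B cell or myeloid UMIs and 3.08% with 2 or more Cd4 UMIs.

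The naive-range share was 43.0% with 2 or more Cd4 UMIs, 36.7% after thinning to 1000 UMIs, 41.6% at a difference of 3 and 56.4% without Crip1, and the memory-range share 33.2%, 19.7%, 19.5% and 20.8%. The Tfh share was 5.02% without other B cell or myeloid UMIs, 12.9% with 2 or more Cd4 UMIs, 2.36% thinned and 3.40% with 3 core genes. The Th1 share was 5.06% under 15000 UMIs, 11.9% with 2 or more Cd4 UMIs, 1.72% thinned and 2.55% with 3 core genes. Thinned and with 3 core genes, Th2 was at 0.215% and 0.212% and Th17 at 0.429% and 0.425%. The cause of these moves was not tested.

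Among genes at least 2-fold apart, reversed log2 ratios belonged to genes of macrophages, dendritic, endocrine and acinar cells, ducts and B cells. Genes within 2-fold also changed sign: Cd28, Cd69, Il7r, Itgb7 and Tcf7 between the ranges, Ccr7, Crip1 and Igfbp4 against CD8 T cells, and Ccr7 and S100a6 against regulatory T cells. Without myeloid UMIs, Ctsk was -0.64 (memory range), 1.63 (Tfh range), -0.016 (CD8) and -1.97 (regulatory), Gpnmb 1.63 (Tfh range), and Lyz2 -0.048 and Spp1 -0.080 (CD8). Without other B cell or myeloid UMIs, Cel was 0.45, Gcg 0.057 and Spp1 1.95 (Tfh range), Lgals3 -0.60 and Sst 0.35 (CD8), and Gpnmb -2.87 and H2-Eb1 -1.43 (regulatory). Under 15000 UMIs, Ctsk was 5.09, Gcg 0.00682, Gpnmb 3.51 and Spp1 0.92 (Tfh range), Sst 0.32 (CD8), and Apol7c 1.42, Ctsk -3.66, Fxyd2 0.92, Gpnmb -0.86 and Lyz1 2.12 (regulatory). Thinned sums gave Ctsk 1.04 (Tfh range) and -0.47 (regulatory), and removed doublets Sst 0.13 (CD8). Of the named gene values, 417 of 568, 266 of 348, 327 of 439 and 394 of 495 stayed within counting error in the 4 comparisons, in the order of the report.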

Other observations

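T cell receptor segments were seen in few members, since 3′ reads rarely reach them. A Trbv gene had a UMI in 40 members (8.49%), of which 39 had exactly 1 such gene, and in 1 of 1935 B cells. Of 35 Trbv genes in the matrix 14 were seen. Trbv20 was found in 8 of these 40 members (exact 95% interval of the share 9.05% to 35.6%), Trbv2 in 7, Trbv12-2 in 6, Trbv19 in 4, and Trbv1 and Trbv13-1 in 3 each. A Trav gene had a UMI in 83 members (17.6%). Both constant genes, Trbc1 and Trbc2, had a UMI in 316 members, only Trbc2 in 146 and only Trbc1 in 7. Reads that fit both of these near-identical genes could have affected their counts, which was not tested.

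The 444 T cells with no UMI of Cd4, Cd8a, Cd8b1 or Foxp3 had states like those of the members. Of the 435 that reached 2000 UMIs, 226 (52.0%, 47.1 to 56.7) were in the naive range and 91 (20.9%, 17.19 to 25.05) in the memory range, at a median depth of 4949 UMIs. Trac had a UMI in 87.4% of them, Trdc, the gamma-delta receptor gene, in 14 and Tcrg-C1 in 18. Natural killer T cell genes were rare, with Klrb1c in 7 and Zbtb16 in 6. In members Klrb1c had a UMI in 0 of 471 cells, which allows up to 0.637%, and Zbtb16 in 2. The 57 cells with UMIs of both Cd4 and Cd8 had a median of 8094 UMIs, 27 of them in the naive range and 15 in the memory range.

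Metabolic genes of activated T cells were counted too. In memory-range against naive-range members 5 of 8 measured genes were higher (among them Pgk1, Tpi1, Ldha and Odc1) and none lower. With members of 15000 or more UMIs left out, 2 of 7 measured genes were higher.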
